A study of Mus musculus with 10 samples.

Results

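Blood coagulation genes were examined in single mouse embryos at embryonic day (E) 7.5 that carried or lacked *Rreb1*, which encodes a zinc finger transcription factor. The members were 10 genes, taken by their symbols from the 20974 genes of the table. They comprised 7 procoagulant genes, namely the fibrinogen chains *Fga*, *Fgb* and *Fgg* and the clotting factors *F2*, *F5*, *F7* and *F10*. The other 3 were the anticoagulant *Proc* and the fibrinolytic genes *Plg* and *Plat*. All 10 were in the table, and all passed the filter on low values, a mean of at least 15 normalized counts in at least 1 genotype. The comparison was between 5 *Rreb1*+/+ and 5 *Rreb1*-/- embryos, both from intercrosses of *Rreb1*+/- mice, labelled as strain CD1 and, by the study's methods, kept on a mixed background outbred to CD1. The mutant allele was a CRISPR-Cas9 deletion within the coding part of exon 6 of *Rreb1* in every cell lineage, extraembryonic tissues included. The parietal endoderm, the outermost extraembryonic endoderm layer, had been taken off each embryo for genotyping, and each remaining embryo gave 1 library of polyadenylated RNA. Embryos are called by genotype and by the replicate numbers 2 to 6 of their labels.

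Clotting ends in the conversion of fibrinogen, a secreted protein of paired alpha, beta and gamma chains, to fibrin by the protease thrombin. Tissue factor and factor VII start the cascade, and factor X with its cofactor factor V turns prothrombin into thrombin. Protein C, once activated by thrombin bound to thrombomodulin, shuts the cascade down by cleaving factor V, while plasmin, made from plasminogen by tissue plasminogen activator, dissolves the fibrin. In the adult these proteins come largely from the liver; before a liver exists, the visceral endoderm (VE), which covers the embryo and lines the yolk sac, is the tissue known for secreting plasma proteins, and the parietal endoderm is known for tissue plasminogen activator and thrombomodulin.

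Every value below is a normalized count, the reads of a gene divided by 1 size factor per embryo, and depth was 31467767 to 35786876 reads per embryo. The *Rreb1* transcript itself was at 2365 to 2924 in *Rreb1*+/+ embryos and at 3988 to 5715 in mutants, counted over the whole gene, so that the deleted exon was not measured on its own. Embryos stood apart by replicate number as well as by genotype: replicates 5 and 6 had 9072 to 13521 summed counts of blood genes against 1463 to 2076 in replicates 2 to 4 for *Rreb1*+/+, and 3658 to 3851 against 471 to 575 for mutants. Mutant replicates 2 and 6 had high parietal endoderm markers (134528 and 149127 summed counts without *Plat*, against 69312 to 94053 in the other embryos). *Prl3d1*, a gene of trophoblast giant cells, was highest in *Rreb1*+/+ replicate 5 (666) and mutant replicate 6 (766). Y-linked genes summed to at most 3.82 counts in the 5 *Rreb1*+/+ embryos, to 2.12 in mutant replicate 2 and to 5849 to 9171 in the other 4 mutants, so that sex and genotype nearly coincided.

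Of the 10 members, 5 fell in mutants (*Fga*, *Fgb*, *Fgg*, *Proc* and *Plg*), 2 rose (*F7* and *Plat*) and 3 did not pass the test (*F2*, *F5* and *F10*) at a limma adjusted p under 0.05, with p-values adjusted over all 15603 genes tested. Among all genes tested, 179 (1.15%) fell and 486 (3.11%) rose, and with replicate numbers as a block 356 fell and 716 rose. Both directions occurred on each side of the system. Among the 7 procoagulant genes 3 fell and 1 rose, with a median log2 fold change of −0.46, and among the 3 anticoagulant and fibrinolytic genes 2 fell and 1 rose, with a median of −0.60. The median over all tested genes was −0.02. In 4 members (*Fga*, *Fgg*, *F2* and *Proc*) every mutant embryo lay below every *Rreb1*+/+ embryo, as it did for 2.46% of all tested genes, and in 2 (*F7* and *Plat*) every mutant lay above, as it did for 4.24%. In whole embryos, fewer cells of a type and less RNA per cell cannot be told apart. The study reports that mutants were smaller than littermates from E7.5 on and delayed in development, so that a delay in stage came with the genotype. The part of this delay in the changes was not tested.

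**Figure D1:**
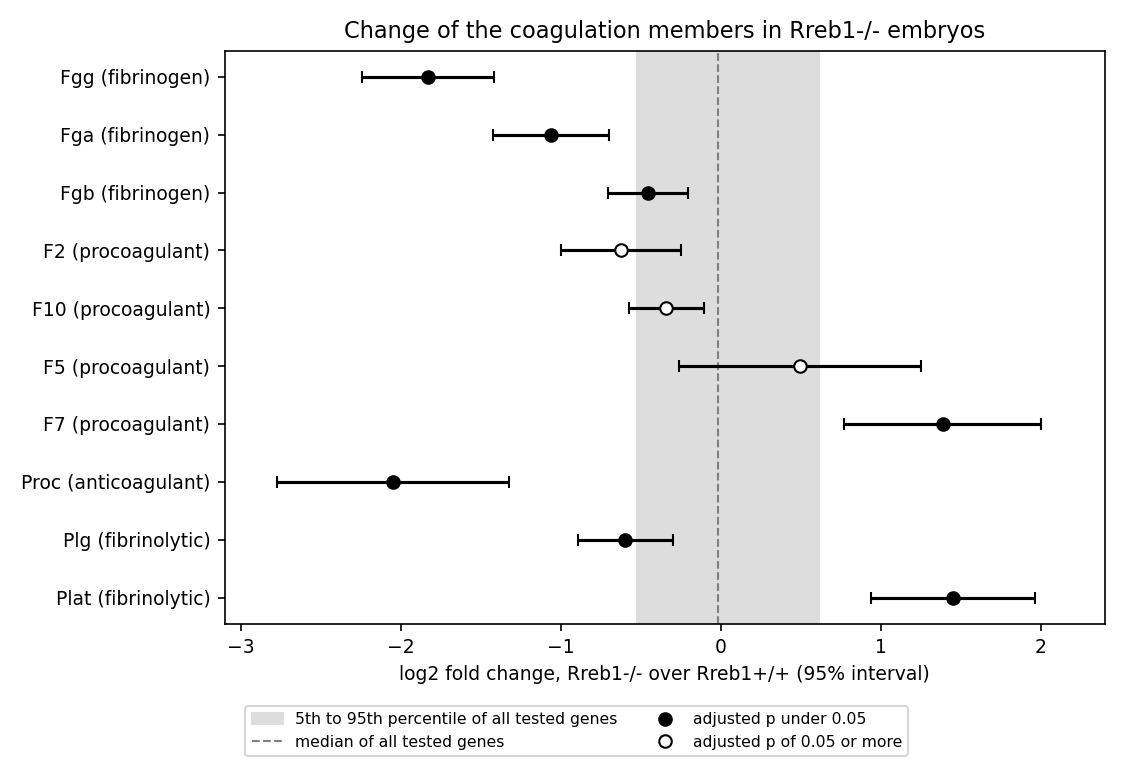
Log2 fold change of the 10 members (x axis, *Rreb1*-/- over *Rreb1*+/+, with 95% intervals), grouped by role. Filled points passed the limma test and open points did not. The grey band spans the 5th to 95th percentile of all tested genes, −0.52 to 0.62, and *Fgg*, *Fga* and *Proc* lie below it and *F7* and *Plat* above it with their whole intervals.

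The fibrinogen genes lie side by side on chromosome 3 within 42.14 kb (GRCm38, GENCODE M21). *Fgg* spans chr3:83007724-83015049 and *Fga* chr3:83026076-83033627, both on the plus strand, and *Fgb* spans chr3:83040141-83049863 on the minus strand. Because neighbouring genes with a shared function changed by unequal amounts, the bases before their starts are shown (RefSeq, GRCm38.p6, 5′ to 3′ on each gene's strand). The stretches are chr3:83007574-83007723 for *Fgg*, chr3:83026003-83026075 for *Fga* and chr3:83049864-83050013 for *Fgb*. Each holds the 150 bases before the RefSeq start, but that of *Fga* was cut to 73 bases because a GENCODE exon of *Fga* begins there. Capitals mark matches to the C/EBP site TTGCNNAA on either strand.

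Fgg: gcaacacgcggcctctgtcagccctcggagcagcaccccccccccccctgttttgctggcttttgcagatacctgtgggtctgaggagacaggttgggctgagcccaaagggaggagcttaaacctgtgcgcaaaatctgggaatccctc

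Fga: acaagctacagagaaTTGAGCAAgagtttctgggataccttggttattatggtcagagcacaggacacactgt

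Fgb: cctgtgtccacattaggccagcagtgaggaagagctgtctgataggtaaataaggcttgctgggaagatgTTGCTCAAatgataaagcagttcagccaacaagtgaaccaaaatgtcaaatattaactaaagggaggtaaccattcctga

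HNF4 and C/EBP proteins are liver-type transcription factors. *Fgb* held a C/EBP match at 80 to 73 bases before its start. *Fga* held a C/EBP match at 135 to 128 bases before its RefSeq start, and within the 150 bases also an HNF4 match (CAAAGNNCA) at 78 to 70 bases, which runs past the stretch printed. *Fgg*, the chain with the largest fall of the 3, held no match to any of the motifs searched. Of 32851 RefSeq promoters cut to the same 150 bases, 5.46% held the C/EBP site and 3.25% the HNF4 site. Neither the TATA box TATAAA (7.57% of promoters) nor the RREB1 core AACCACCC (0.447%) was found in this window of the 7 members that had a promoter in the table (*Fga*, *Fgb*, *Fgg*, *F2*, *F5*, *F7* and *F10*). Of the 9 members looked up, *Plg* and *Plat* had none, and *Proc* was not looked up. A match of letters is a description of the sequence and does not show binding, and no match says only that these letters are not in the window.

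*Fgg*, the gamma chain, was at 1052, 928, 876, 1123 and 885 in *Rreb1*+/+ replicates 2 to 6. In mutants it was at 344, 174, 225, 320 and 341. The highest mutant thus had well under the count of the lowest *Rreb1*+/+ embryo, and the mutant mean was 0.289 of the *Rreb1*+/+ mean (281 ± 77.1 against 972 ± 109, SD, n = 5 each). *Fgg* fell by 1.83 on the log2 scale (SE 0.19, limma adjusted p = 0.000278), and the exact two-sided permutation p was 0.00794, the smallest that 5 against 5 embryos can give.

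*Fga*, the alpha chain, was at 1009, 907, 1011, 1136 and 1011 in *Rreb1*+/+ replicates 2 to 6 and at 522, 371, 374, 513 and 718 in the mutants. Mutant replicate 6 was nearest to the *Rreb1*+/+ embryos but still below all of them. The means were 1015 ± 81.4 and 500 ± 142 (SD, n = 5 each), a ratio of 0.492. *Fga* fell by 1.06 on the log2 scale (SE 0.17, limma adjusted p = 0.00397).

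*Fgb*, the beta chain, was at 1892, 1942, 1596, 2206 and 1568 in *Rreb1*+/+ replicates 2 to 6 and at 1356, 1183, 1194, 1351 and 1608 in the mutants. Here the groups overlapped, since mutant replicate 6 lay above *Rreb1*+/+ replicates 4 and 6. The mean went from 1841 ± 265 to 1338 ± 172 (SD, n = 5 each), a ratio of 0.727. *Fgb* fell by 0.46 on the log2 scale (SE 0.11, limma adjusted p = 0.0466), close to the threshold. The call held without *Rreb1*+/+ replicate 4 (limma adjusted p = 0.0499) or 6 (0.0446) and without mutant replicate 6 (0.0236), and was lost without any 1 of *Rreb1*+/+ replicates 2 (0.0925), 3 (0.117) and 5 (0.105) or mutant replicates 2 (0.0853), 3 (0.0947), 4 (0.108) and 5 (0.0748).

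**Figure D2:**
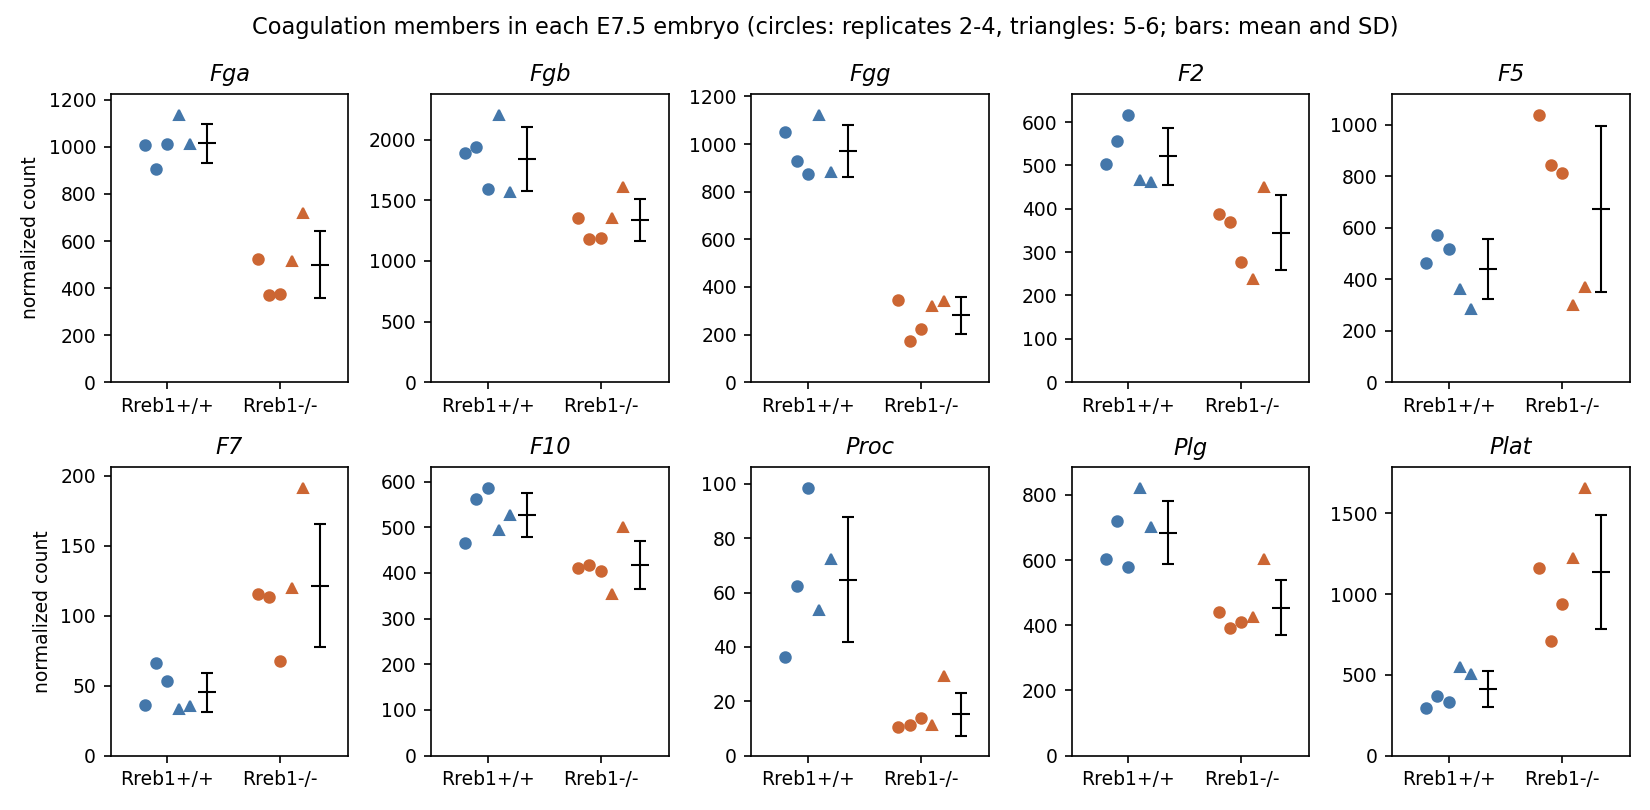
Normalized count (y axis, from 0) of each member in each embryo, *Rreb1*+/+ in blue and *Rreb1*-/- in orange, with replicates 2 to 4 as circles and 5 and 6 as triangles and with the mean and SD beside them. *Fga*, *Fgg*, *F2* and *Proc* have all mutants below and *F7* and *Plat* all mutants above, while *F5* is high in mutant replicates 2 to 4 alone.

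The chains differed in how far they fell, and this was tested as the ratio of 2 chains within each embryo, from which the size factor cancels. The ratio of *Fgg* to *Fgb* was 0.531 ± 0.0366 in *Rreb1*+/+ embryos (0.478 to 0.564) and 0.208 ± 0.0420 in mutants (0.147 to 0.254). That of *Fgg* to *Fga* was 0.959 ± 0.0830 against 0.566 ± 0.0882, and that of *Fga* to *Fgb* was 0.559 ± 0.0774 against 0.368 ± 0.0559 (SD, n = 5 each). In none of the 3 ratios did the genotypes overlap. The log2 differences were −1.37, −0.77 and −0.60, each with an exact two-sided permutation p of 0.00794 (0.00794 adjusted over the 3 ratios). With embryos paired by replicate number, all 5 pairs moved the same way in each ratio, and the exact sign-flip p was 0.0625, the smallest that 5 pairs allow.

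The fibrinogen transcripts therefore differed in make-up as well as in amount. Their sum was 3463 to 4465 in *Rreb1*+/+ embryos and 1727 to 2667 in mutants, with no overlap. *Fgb* gave 45.3% to 51.4% of the sum in *Rreb1*+/+ embryos and 60.3% to 68.5% in mutants. *Fgg* gave 24.6% to 26.6% and 10.05% to 15.5%, and *Fga* gave 24.0% to 29.2% and 20.9% to 26.9%. Only the share of *Fga* overlapped between the genotypes. These are shares of reads and not of molecules, since the transcripts differ in length.

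**Figure D3:**
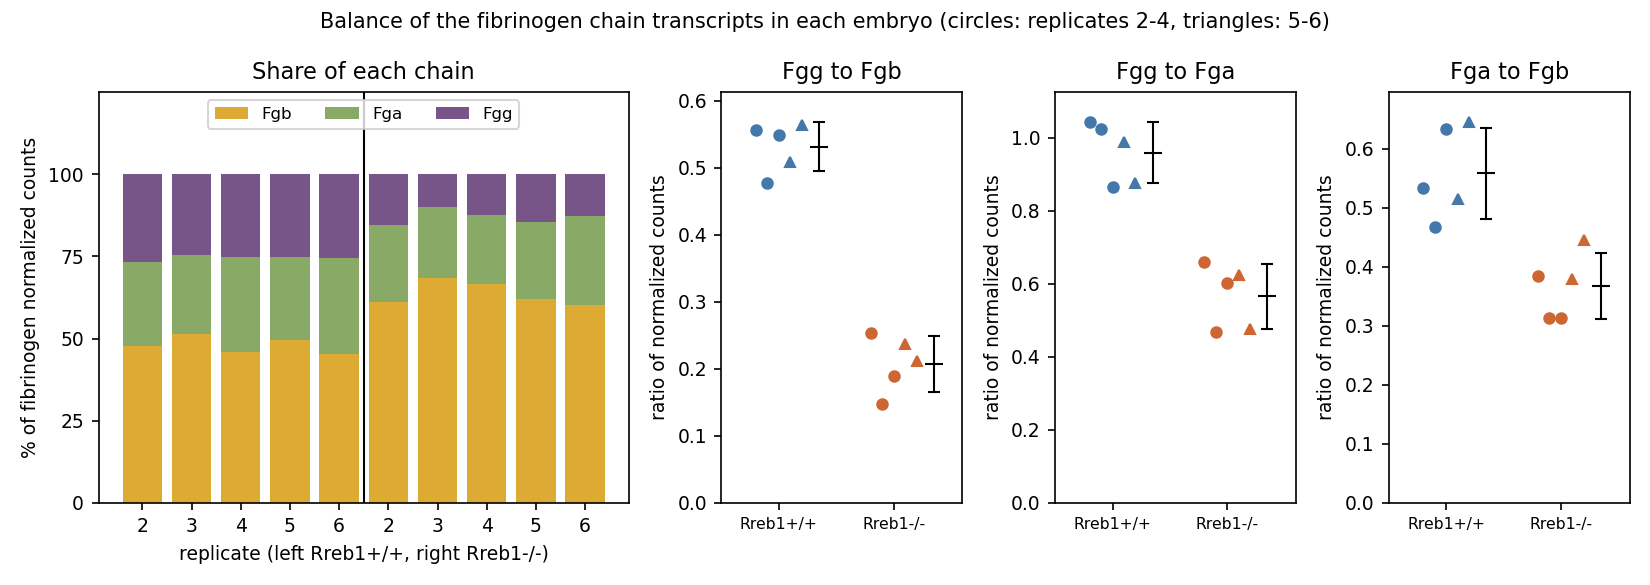
Left, the share of each fibrinogen chain in the summed normalized counts of the 3 genes (y axis, percent) for each embryo. Right, the ratios of 2 chains (y axis, from 0) per embryo with the mean and SD, which do not overlap between genotypes. *Fgg* takes 24.6% to 26.6% of the counts in *Rreb1*+/+ embryos and 10.05% to 15.5% in mutants.

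Factor VII, the protease that starts the cascade with tissue factor, went the other way. *F7* was at 36.5, 66.3, 53.5, 33.6 and 35.8 in *Rreb1*+/+ replicates 2 to 6 and at 115, 113, 68.0, 120 and 191 in the mutants. The lowest mutant, replicate 4, lay just above the highest *Rreb1*+/+ embryo, replicate 3, and mutant replicate 6 was far above the rest. The mean rose from 45.1 ± 14.2 to 121 ± 44.1 (SD, n = 5 each), 2.69 times, and *F7* rose by 1.39 on the log2 scale (SE 0.28, limma adjusted p = 0.0172). The difference was 0.91 in replicates 2 to 4 (limma adjusted p = 0.171 in these alone) and 2.09 in replicates 5 and 6 (0.0520). Without mutant replicates 2 and 6, which had the high parietal endoderm markers, the log2 difference was 1.14 (SE 0.30, limma adjusted p = 0.0906). Without *Rreb1*+/+ replicate 5 and mutant replicate 6, with the giant cell gene, it was 1.11 (SE 0.27, limma adjusted p = 0.0724). The part of these cells in the rise of *F7* was not tested.

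*F7* lies directly before *F10* on chromosome 8 (chr8:13026034-13035809 and chr8:13037308-13056676, plus strand, GRCm38), with 1498 bases between them. Since the neighbours behaved differently, the 150 bases before each RefSeq start are shown as well, chr8:13025884-13026033 for *F7* and chr8:13037158-13037307 for *F10* (GRCm38.p6, plus strand). Capitals mark the HNF4 match.

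F7: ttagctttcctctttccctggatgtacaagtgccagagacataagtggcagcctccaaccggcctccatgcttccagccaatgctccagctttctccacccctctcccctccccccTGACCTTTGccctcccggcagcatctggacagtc

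F10: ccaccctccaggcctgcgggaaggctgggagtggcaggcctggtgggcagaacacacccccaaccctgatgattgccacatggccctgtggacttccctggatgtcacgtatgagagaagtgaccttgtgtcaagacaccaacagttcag

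*F7* held an HNF4 match at 34 to 26 bases before its start, and *F10* held no match to the motifs searched. *F10*, the protease that makes thrombin, was at 466, 561, 585, 495 and 528 in *Rreb1*+/+ replicates 2 to 6 and at 410, 418, 405, 353 and 502 in the mutants. The groups overlapped through mutant replicate 6. The means were 527 ± 48.2 and 417 ± 53.5 (SD, n = 5 each), with a log2 difference of −0.34 (95% interval −0.57 to −0.11, limma adjusted p = 0.113), which did not pass the test. Without mutant replicate 6 it passed (limma adjusted p = 0.0480).

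*F2*, which encodes prothrombin, was at 504, 557, 617, 466 and 462 in *Rreb1*+/+ replicates 2 to 6 and at 388, 370, 277, 238 and 451 in the mutants. Every mutant lay below every *Rreb1*+/+ embryo, mutant replicate 6 by a small margin (exact two-sided permutation p = 0.00794). The means were 521 ± 65.9 and 345 ± 86.1 (SD, n = 5 each). The log2 difference of −0.62 (95% interval −1.0 to −0.25) did not pass the adjusted test (limma adjusted p = 0.0698), and passed without mutant replicate 6 (0.0328).

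*F5*, which encodes the cofactor of factor X and is also a substrate of protein C, was at 463, 573, 517, 362 and 284 in *Rreb1*+/+ replicates 2 to 6. In mutants it was at 1038, 843, 812, 299 and 370. The high mutants were replicates 2, 3 and 4, and mutant replicates 5 and 6 lay inside the *Rreb1*+/+ range. Over all embryos the log2 difference was 0.50 (95% interval −0.26 to 1.25, limma adjusted p = 0.490). In replicates 2 to 4 the mean was 518 in *Rreb1*+/+ embryos and 898 in mutants (log2 difference 0.79, limma adjusted p = 0.0240 in these alone), and in replicates 5 and 6 it was 323 and 335 (0.05, 0.935). The difference between the 2 sets of embryos was not tested. Whether the sets differ in stage, litter or handling is not given in the labels.

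*Proc*, which encodes protein C, had the largest fall of the 10 members (chromosome 18, 32123126 to 32139570, minus strand, GRCm38). Its counts were low, at 36.5, 62.2, 98.3, 53.8 and 72.5 in *Rreb1*+/+ replicates 2 to 6 and at 10.6, 11.4, 13.8, 11.2 and 29.2 in the mutants. Mutants 2 to 5 lay close together and mutant replicate 6 stood above them, still below every *Rreb1*+/+ embryo. The mean went from 64.7 ± 23.0 to 15.2 ± 7.90 (SD, n = 5 each), a ratio of 0.236. *Proc* fell by 2.05 on the log2 scale (SE 0.33, limma adjusted p = 0.00497).

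*Plg*, which encodes plasminogen (chromosome 17, 12378608 to 12419385), was at 603, 720, 578, 820 and 702 in *Rreb1*+/+ replicates 2 to 6 and at 442, 392, 410, 425 and 603 in the mutants. Mutants 2 to 5 lay below all *Rreb1*+/+ embryos, and mutant replicate 6 lay at the level of the lower ones. The mean went from 684 ± 97.6 to 454 ± 85.2 (SD, n = 5 each). *Plg* fell by 0.60 on the log2 scale (SE 0.14, limma adjusted p = 0.0314). This call was lost without any 1 of *Rreb1*+/+ replicates 3 (limma adjusted p = 0.0829), 5 (0.0785) and 6 (0.0778) or mutant replicates 2 (0.0671), 3 (0.0714), 4 (0.0772) and 5 (0.0621).

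*Plat*, which encodes tissue plasminogen activator (chromosome 8, 22757727 to 22782844), rose. It was at 294, 371, 331, 551 and 507 in *Rreb1*+/+ replicates 2 to 6 and at 1159, 711, 937, 1227 and 1655 in the mutants. The lowest mutant, replicate 3, was above the highest *Rreb1*+/+ embryo, replicate 5. The mean rose from 411 ± 112 to 1138 ± 353 (SD, n = 5 each), 2.77 times. *Plat* rose by 1.45 on the log2 scale (SE 0.23, limma adjusted p = 0.00490), with 1.47 in replicates 2 to 4 and 1.43 in replicates 5 and 6. The 2 genes of the plasmin pair thus moved in opposite directions, plasminogen down and its activator up.

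*Plat* is also a marker of parietal endoderm, the layer that had been taken off before RNA was extracted. In the list of 14 parietal endoderm genes *Plat* was the only 1 that passed the test by limma, edgeR or DESeq2. None fell, and *Vim* alone had an unadjusted p under 0.05 in that direction. The summed counts of the other 13 were highest in mutant replicates 2 and 6, which had 2 of the 3 highest counts of *Plat*. In mutant replicates 3, 4 and 5 the sum was 69312 to 77001, below the *Rreb1*+/+ range of 78111 to 94053, and *Plat* was at 711 to 1227, above every *Rreb1*+/+ embryo. The sum is weighted to the genes with most counts, *Col4a1* first (mean 20473 in *Rreb1*+/+ embryos), and single genes went both ways. In mutant replicate 3 *Pth1r* (2709) and *Snai1* (911) lay above every *Rreb1*+/+ embryo, and *Lama1* (3083) and *Vim* (2816) lay below. Without mutant replicates 2 and 6, the log2 difference of *Plat* was 1.23 (limma adjusted p = 0.0310). The mutants left in that fit all had Y-linked counts. The part of parietal endoderm in the rise of *Plat* was not tested.

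**Figure D4:**
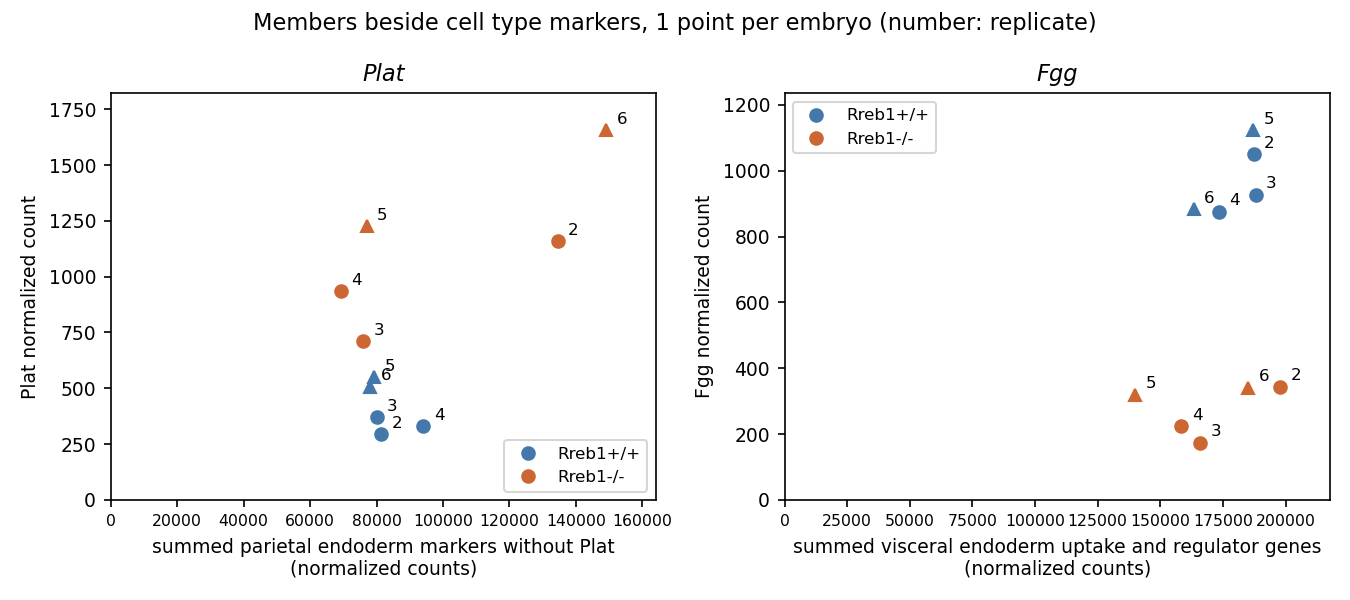
Left, *Plat* (y axis, normalized count) against the summed parietal endoderm markers without *Plat* (x axis), and right, *Fgg* against the summed VE uptake and regulator genes, 1 point per embryo with its replicate number. Mutant replicates 3 to 5 have *Plat* at 711 to 1227 with a marker sum of 69312 to 77001. *Fgg* is low in every mutant over a VE sum of 139866 to 197843, a sum weighted to *Cubn*.

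Genes of VE uptake and identity were measured beside the members, in a list of 14 that included *Cubn*, *Lrp2*, *Dab2*, *Hnf4a* and *Gata6*. None of the 14 passed the test in either direction by limma, edgeR or DESeq2, and 0 had an unadjusted p under 0.05 by limma. They summed to 163381 to 188091 in *Rreb1*+/+ embryos and 139866 to 197843 in mutants. This sum too is weighted to the genes with most counts, *Cubn* first (mean 92485 in *Rreb1*+/+ embryos), and says little of the regulators. *Gata6*, the member with the largest difference, had 0.27 (limma adjusted p = 0.483). Of 13 tested genes for plasma proteins of the VE, 3 fell, *Afp* (−1.32, limma adjusted p = 0.0157), *Apoa4* (−1.21, 0.0339) and *Apoc2* (−0.91, 0.000615), and none rose. Among all tested genes 1.15% fell and 3.11% rose. When each embryo was scaled to the 14 VE genes, *Fga*, *Fgg* and *Proc* still fell and *F7* and *Plat* rose, and *F2* passed (−0.64, SE 0.14, limma adjusted p = 0.0247). *Fgb* had a log2 difference of −0.47 (SE 0.16, limma adjusted p = 0.212) and *Plg* of −0.61 (SE 0.17, 0.0913), about the size without this scaling but with a larger SE, and neither passed. This scaling was chosen after the values had been seen, and the part of the amount of VE in the members' changes was not tested.

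Other sources of clotting proteins were measured too. None of 9 tested endothelial genes, 10 blood genes or 11 trophoblast genes passed the test by limma, edgeR or DESeq2, and 0, 3 and 1 of them had an unadjusted p under 0.05 by limma. With replicate numbers as a block, 4 blood genes, *Hbb-bh1* among them, and 1 endothelial gene (*Cdh5*) fell. The endothelial genes summed to 5301 to 12495 in *Rreb1*+/+ embryos and 5338 to 10149 in mutants. In the neural list 6 of 12 genes rose (*Map2*, *Ntrk2*, *Prph*, *Stmn4*, *Syt1* and *Tubb3*), beside 3.11% of all tested genes. Another 5 had a log2 difference below 0 and did not pass by limma. Among these, *Sox1* had −1.88 (limma adjusted p = 0.353). *Pax6* (−1.06, limma adjusted p = 0.157) was the 1 with an unadjusted p under 0.05, and fell with the block. The neural genes summed to 1699 to 2787 in *Rreb1*+/+ embryos and 3611 to 5123 in mutants. Of 5 tested genes of maternal decidua and immune cells none passed by limma or edgeR, and *Pgr*, the 1 with an unadjusted p under 0.05 (0.57, limma adjusted p = 0.0618), passed with DESeq2 and with the block. The part of these cells in the changes of the members was not tested, beyond the sets of embryos left out above.

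Mutant replicate 2 was the 1 mutant that, like the *Rreb1*+/+ embryos, had almost no Y-linked counts. Its values were below all *Rreb1*+/+ embryos for *Fga* (522), *Fgg* (344), *F2* (388) and *Proc* (10.6) and above all of them for *F7* (115) and *Plat* (1159). When the log2 of summed Y-linked counts entered the fit, no member passed the test by limma. The log2 difference was then −1.50 for *Fgg* (SE 0.33, limma adjusted p = 0.0814), −2.50 for *Proc* (SE 0.60, 0.103), 1.55 for *Plat* (SE 0.44, 0.142) and −0.98 for *Fga* (SE 0.31, 0.162). The SEs were larger than without the covariate, in a fit that rests the genotype difference on that 1 embryo. In the other mutants sex and genotype cannot be told apart.

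Levels of the members relative to each other were compared per kb of exon, from the union of GENCODE M21 exons. In *Rreb1*+/+ embryos *Fgb* was highest at 483 ± 69.5 normalized counts per kb and *Fgg* followed at 465 ± 52.3, and these did not differ beyond their spread. *Fga* came next at 337 ± 27.0, below every value of *Fgg*. *F10* (193) and *Plg* (184) overlapped, *F2* stood at 113, *Plat* (65.8) and *F5* (59.2) overlapped, and *Proc* (26.1) and *F7* (24.3) were lowest and overlapped. The highest *Proc* value also reached into the range of *F5*. In mutants the order changed. *Fgb* was still highest at 351, *Plat* was in rank 2 at 182 instead of rank 7, and *Fga* (166), *F10* (153) and *Fgg* (134) followed with ranges that overlapped with *Plat*. *Fgg* thus went from rank 2 to rank 5. *Plg* (122), *F5* (90.5) and *F2* (75.0) came next. The range of *F5* overlapped with those of all members but *Fgb* and *Proc*. *Plg* also overlapped with *Plat*, *Fga*, *F10* and *Fgg*, and *Fgg*, *F2* and *F7* overlapped with each other. *Plg* and *F2* did not overlap. *F7* (65.4) was now above *Proc* (6.15) without overlap.

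**Figure D5:**
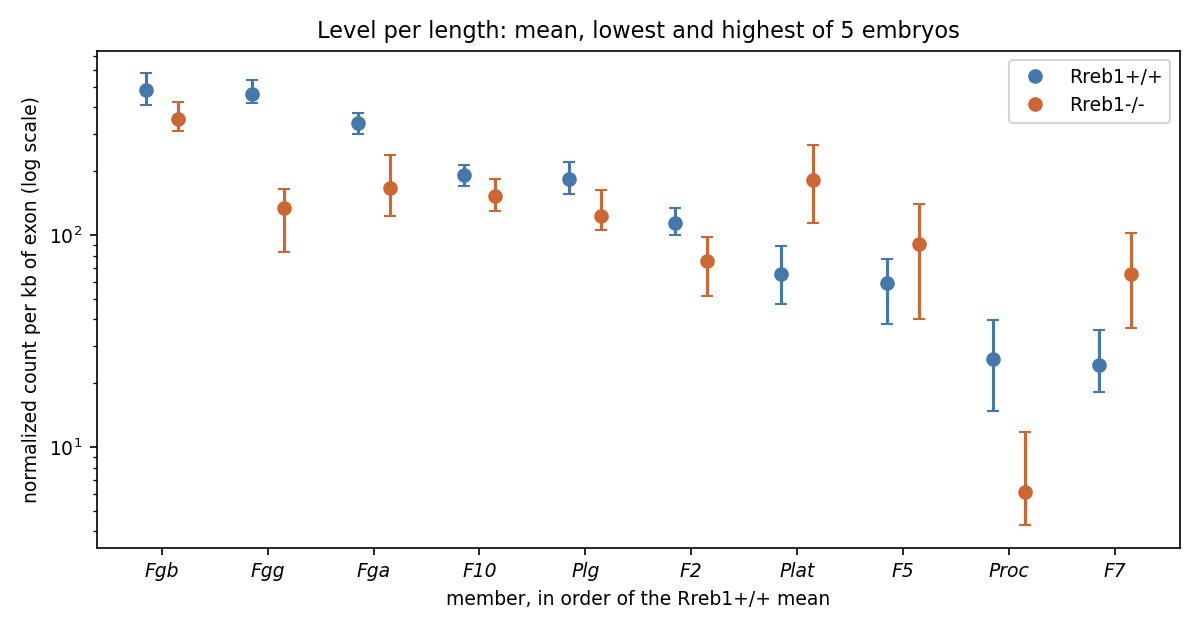
Normalized count per kb of exon (log scale) of each member in the order of the *Rreb1*+/+ mean, with the mean, the lowest and the highest of 5 embryos per genotype. *Plat* goes from 65.8 to 182 and *Fgg* from 465 to 134, while *Fgb* stays highest in both genotypes.

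Beyond the members, most genes of clotting and its control showed no call. Of 15 other coagulation factors 9 were in the table and 5 were tested, *F3* (tissue factor), *F8*, *Vwf*, *Fgl2* and *Hpn*, and none passed by limma, edgeR or DESeq2. *Fgl2*, a fibrinogen-like protein, had the largest difference at 0.94 and was the 1 with an unadjusted p under 0.05 (limma adjusted p = 0.189). *F3*, the partner of factor VII, was at 322 ± 70.2 in *Rreb1*+/+ embryos and 457 ± 218 in mutants (0.40, 0.520). Of 8 other anticoagulant genes tested 1 fell and none rose. This was *Serpina10*, which encodes the inhibitor of factor X that works with protein Z, with 36.6 ± 7.91 in *Rreb1*+/+ embryos and 15.9 ± 7.41 in mutants (log2 difference −1.22, limma adjusted p = 0.0393). That call was lost without any 1 of *Rreb1*+/+ replicates 2, 3, 5 and 6 or mutant replicates 3 to 6 (limma adjusted p = 0.0719 to 0.104).

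The partner genes of protein C did not pass, although *Pros1* rose in the fit that paired embryos by replicate number. *Thbd* (thrombomodulin) had 215 ± 162 in *Rreb1*+/+ embryos and 238 ± 297 in mutants (limma adjusted p = 0.844), *Procr* (the protein C receptor) 198 ± 135 and 261 ± 232 (0.848), and *Pros1* (protein S, the cofactor) 908 ± 92.4 and 1193 ± 236 (0.142). *Proz*, which encodes protein Z and lies behind *F10* on chromosome 8 (13060914 to 13076026), was at 159 to 169 in *Rreb1*+/+ embryos and 184 to 313 in mutants, with no overlap, and did not pass either (0.43, 0.138).

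Of 10 other fibrinolysis genes tested none passed by limma, and 1 had an unadjusted p under 0.05. This was *Cpb2*, which encodes an enzyme that protects fibrin from plasmin, with 22.3 ± 8.05 in *Rreb1*+/+ embryos and 61.0 ± 29.7 in mutants, every mutant above (log2 difference 1.35, limma adjusted p = 0.0512), and it rose with edgeR (0.0456) and DESeq2 (0.00775). None of 3 tested thrombin receptors passed by limma or edgeR. *F2rl3* had the largest difference (−0.63, limma adjusted p = 0.695), and *F2r*, the main thrombin receptor, with 3677 ± 211 in *Rreb1*+/+ embryos and 4894 ± 990 in mutants (0.39, 0.111), was the 1 with an unadjusted p under 0.05 and rose with DESeq2 and with the block. None of the 6 genes that process clotting factors passed by limma, edgeR or DESeq2, *Ggcx* and *Vkorc1* of the vitamin K cycle among them (−0.11 each, limma adjusted p = 0.638 and 0.730), and *Furin*, the 1 with an unadjusted p under 0.05, had the largest difference (−0.47, 0.164). Of 13 tested regulators of liver-type genes 1 rose and none fell. This was *Nr1h4*, which encodes the bile acid receptor FXR, with 10.3 ± 4.85 in *Rreb1*+/+ embryos and 55.9 ± 12.5 in mutants (log2 difference 2.43, limma adjusted p = 0.00168). *Hnf4a* and *Cebpa* were among the 12 that did not pass. Over these 6 lists 1 of 45 tested genes fell and 1 rose, beside 1.15% lower and 3.11% higher among all 15603 tested genes. In the fit with the block 2 fell (*Serpina10* and *Il6st*) and 3 rose (*Nr1h4*, *Pros1* and *F2r*). That fit had 356 lower and 716 higher among all tested genes. *Thbd*, *Procr*, *Pros1*, *Proz*, *F3*, *F2r*, *Ggcx* and *Vkorc1* were singled out after their values were seen.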

How the data were processed

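The data were 10 libraries, 1 per embryo, 5 of each genotype, grouped by the genotype in the labels. Per the labels and the study's methods, RNA was polyA-selected with a stranded kit, and the authors aligned reads with STAR, counted them per gene with HTSeq and normalized them with DESeq. Their versions, genome build, gene models and strand setting were not given in the sources used here. The deposited signal of a gene is therefore a read count over 1 size factor per embryo, called a normalized count. In each embryo the values were whole multiples of a single step (100% within 0.1 read). The reads recovered in this way gave the depth (31467767 to 35786876) and served for count tests. Low genes such as *Proc* are measured least precisely.

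The 15603 of 20974 genes whose mean reached 15 in either genotype were tested with limma 3.58.1 in R 4.3.3 (empirical Bayes with a mean trend) on log2(normalized count + 1), which is also the scale of fold changes. Adjustment followed Benjamini and Hochberg, and an adjusted p under 0.05 was a call. For single values and ratios all 252 arrangements of the embryos were enumerated in an exact two-sided permutation test. The limma fit was tried on simulated counts of independent embryos, with no sets of replicates and no sex difference. The permutation tests and the alternative fits were not tried in this way. Whether embryos shared a litter is not stated in the labels. Once genotype means were removed, the 2 embryos of each number correlated in all 5 pairs (r = 0.253 to 0.459), so the number served as a block in an alternative fit, although just 3 of 10 embryos were most like the embryo of their own number.

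Named genes were the 10 members, up to 4 called genes per direction of each list or, where none was called, its largest difference, *Rreb1*, *Xist* and the genes most like *Fgg* and *Plat*. The members, lists and tests were chosen with earlier results of these data known. Positions were matched by gene identifier to GENCODE M21 (GRCm38), and promoters by symbol to RefSeq (GRCm38.p6). Some list genes are not reported here by name. Alternatives used recovered reads with edgeR 4.0.16 or with DESeq2 1.42.0, TMM or quantile normalization, pseudocounts of 0.5 and 5, no filter or a mean of at least 50, a threshold of 0.01, the block, a Y-linked covariate, each embryo left out, and either set of replicates alone. Scaling to VE genes and leaving out pairs of embryos high in parietal endoderm or giant cell genes were added after the data had been seen.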

Additional observations from a re-analysis of the deposited data

Results flagged for a closer look

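In 5 of 64 groups of 5 embryos (7.81%) 1 embryo stood far from the other 4, where chance alone gives about 1 in 20. That rate holds for normally distributed, independent groups, and these groups share the same 10 embryos. *Xist* was left out of this check, and was at 58036 in mutant replicate 2 against 39.3 to 61.3 in the other mutants. *Proc* was at 29.2 in mutant replicate 6 against 10.6 to 13.8 in the other mutants. *Plg* was at 603 in the same embryo against 392 to 442. *Fgl2* was at 31.8 in mutant replicate 2 against 15.9 to 20.4. *Prl3d1*, a gene of trophoblast giant cells, was at 666 in *Rreb1*+/+ replicate 5 against 0 to 149 in the other *Rreb1*+/+ embryos, and at 766 in mutant replicate 6 against 0 to 27.6 in the other mutants. Mutant replicate 6 was thus set apart in 3 of these groups, and it also had the highest *Fga*, *Fgb*, *F2*, *F7*, *F10* and *Plat* of the mutants. Without mutant replicate 6 *F2* and *F10* passed the test, and the calls of *Fga*, *Fgb*, *Fgg*, *Proc*, *Plg*, *F7* and *Plat* held.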

How the results depend on the processing

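*Fga*, *Fgg*, *F7*, *Proc* and *Plat* kept their calls with edgeR, DESeq2, TMM, quantile normalization, other pseudocounts and filters, the block, and each embryo left out, and every member kept its direction in all 25 alternatives. Without 1 embryo, the members that fell numbered 3 to 7 and those that rose 2. Leaving 1 embryo out gave 95 to 207 genes lower and 342 to 436 higher. In the lists of other clotting genes and liver-type regulators it gave 0 to 1 lower and 1 higher, the regulator *Nr1h4*. The 179 genes lower and 486 higher became 428 and 785 with DESeq2, 24 and 83 with the Y-linked covariate, 21 and 85 in replicates 5 and 6 alone, 78 and 211 after VE scaling, 117 and 298 without *Rreb1*+/+ replicate 5 and mutant replicate 6, and 55 and 229 at an adjusted p under 0.01. The block gave 356 lower and 716 higher, and leaving out mutant replicates 2 and 6 gave 276 higher. Members lower and higher became 0 and 0 with the Y-linked covariate, 1 and 1 in replicates 5 and 6 alone, and 3 and 1 at 0.01, and 1 was higher without either pair of embryos. In the lists of other clotting genes and liver-type regulators, 0 were lower at a mean of at least 50 or in either replicate set. The number lower was also 0 with the covariate, after VE scaling, and without *Rreb1*+/+ replicate 5 and mutant replicate 6. With the block it was 2, and without mutant replicates 2 and 6 it was 3. Genes higher in these lists numbered 2 with edgeR or VE scaling, 3 with DESeq2 or the block and 0 with the covariate. Among the members, *Fgb* lost its call with quantile normalization (limma adjusted p = 0.0526) and no filter (0.0554), and *F2* (0.0166) and *F10* (0.0459) passed with DESeq2. The replicate block changed no member's call, with *Fgb* just under the threshold. The ratios *Fgg* to *Fgb*, *Fgg* to *Fga* and *Fga* to *Fgb* (−1.37, −0.77 and −0.60, also in pairs) ran from −1.45 to −1.26, −0.83 to −0.71 and −0.68 to −0.55 without 1 embryo, and in replicates 2 to 4 alone were −1.45, −0.77 and −0.68 with the smallest exact p possible, 0.1. *Xist* changed sign with the covariate (0.33). Where a call was lost, the cause was not tested. Depth limits the low genes, such as *Proc* in mutants.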

Other observations

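The genes whose embryo-to-embryo variation within genotype was most like that of *Fgg*, by Pearson's r of log2(normalized count + 1) after each genotype mean was removed, over 10 embryos and 12962 genes with a mean of at least 50, were *5930420M18Rik* (0.97), *Acbd3* (0.93), *Apmap* (0.93), *Dzip1* (0.92) and *Slc16a9* (0.92). For *Plat* they were *St6galnac3* (0.98), *Nipa1* (0.97), *Tnnc1* (0.97), *Ero1lb* (0.97) and *Slc30a10* (0.96). These are the highest of many correlations over few embryos that fall into sets by replicate number, and are given as a description. *Eomes*, a T-box gene of trophoblast and primitive streak that was singled out after its values were seen, was high in the same 3 embryos as *F5*. It was at 4549 to 5858 in mutant replicates 2 to 4, at 642 and 747 in mutant replicates 6 and 5, and at 720 to 1928 in *Rreb1*+/+ embryos.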
